A study of Mus musculus with 14 samples.

Results

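The comparison set 3 RNA-seq libraries made from 2500 sorted leukocytes against 3 made from 10000, which is 6 of the 14 libraries in the series. It covered every gene that passed a filter on low counts, 14795 of the 48794 genes in the count table. Both groups held CD45+ cells sorted by flow cytometry from liver needle biopsies of wild-type (WT) mice that had received no treatment, so that the number of sorted cells is the only difference the labels give. The labels do not say whether libraries of one group came from separate animals or sorts, or which age the mice had, and p-values therefore measure the spread between these libraries, which may be technical. The remaining sorted libraries, 3 of 5000 and 3 of 20000 cells, have the same 4-fold ratio of cell numbers and served as a second comparison. The 2 libraries of bulk liver were used only for the level of hepatocyte RNA.

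CD45, encoded by Ptprc, is a receptor tyrosine phosphatase on the surface of nucleated blood cells. A CD45 sort of a resting liver collects Kupffer cells, which are the resident macrophages, together with lymphocytes of the T, B and natural killer lineages, monocytes, dendritic cells, neutrophils and a few plasma cells. The libraries were made by full-length cDNA synthesis with template switching and PCR before tagmentation, a method for small amounts of RNA in which a copy is completed when reverse transcriptase reaches the 5′ end of the mRNA.

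Library totals were similar, 8603437 to 10091328 counts at 2500 cells and 9482496 to 9834628 counts at 10000 cells. Ptprc averaged 2575 ± 20.9 CPM (counts scaled to library size with TMM factors) at 2500 cells and 2601 ± 23.3 CPM at 10000 cells (SD, n = 3 each), a log2 difference of -0.01. All further log2 differences are 2500 minus 10000 cells unless another pair is named. Hepatocyte genes held 0.0557% to 0.0669% of counts at 2500 cells and 0.0534% to 0.0650% at 10000 cells, against 15.4% to 15.6% in bulk liver. The 2500-cell libraries lay further apart from each other. On the first principal component of the 6 libraries, with 31.5% of the variance, replicates 2 and 3 of 2500 cells took the extremes at 18.5 and -16.1, while the second, with 25.7%, separated the groups. Over 9644 genes with a mean of at least 10 CPM, the median SD of log2 CPM between replicates was 0.144 at 2500 cells and 0.103 at 10000 cells, and it was larger at 2500 cells for 66.5% of genes. Divided by its degrees of freedom, the chi-square statistic of the counts was 7.95 to 13 between pairs of 2500-cell libraries and 3.21 to 5.34 between pairs of 10000-cell libraries, so every pair differed by more than read-counting error, which does not cover the sampling of cells or of molecules before PCR.

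Most leukocyte genes had close levels at both cell numbers, and a small group of genes was lower at 2500 cells. At an adjusted p under 0.05, 25 genes were lower at 2500 cells, which is 0.169% of genes tested, and 4 were higher, which is 0.0270%. Both directions together made 29 genes or 0.196%. Of these, 12 were lower by at least 2-fold and 2 were higher by at least 2-fold. Before adjustment 1095 genes had a p under 0.05, or 7.40%, split into 552 higher and 543 lower. The middle of the distribution was narrow: the log2 difference was -0.11 at the 25th percentile, 0.01 at the median and 0.13 at the 75th. Its 95% interval lay within 2-fold either way for 11714 genes (79.2%), and for 9648 of the 9796 genes with at least 10 CPM in either group (98.5%). It lay within 1.5-fold for 9080 genes (61.4%). The 3 libraries of one group lay wholly above or below those of the other for 1624 genes, or 11.0%, of which 828 were lower and 796 higher at 2500 cells, and all 29 genes that passed were among them. The counts of passing genes rested in part on single libraries. Without replicate 1, 2 or 3 of 10000 cells, 14, 14 and 15 genes were lower and 0 were higher in the edgeR fit, while 933, 975 and 863 genes had an unadjusted p under 0.05. Without replicate 3 of 2500 cells, 31 were lower and 21 higher, and without replicate 1 of 2500 cells 31 and 8. Without replicate 2 of 2500 cells they were 24 and 6. Leaving out libraries that the comparison only shared its spread with also moved the higher count, to 2 without replicate 1 of 5000 cells or of 20000 cells and to 1 without replicate 3 of 20000 cells.

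**Figure D1:**
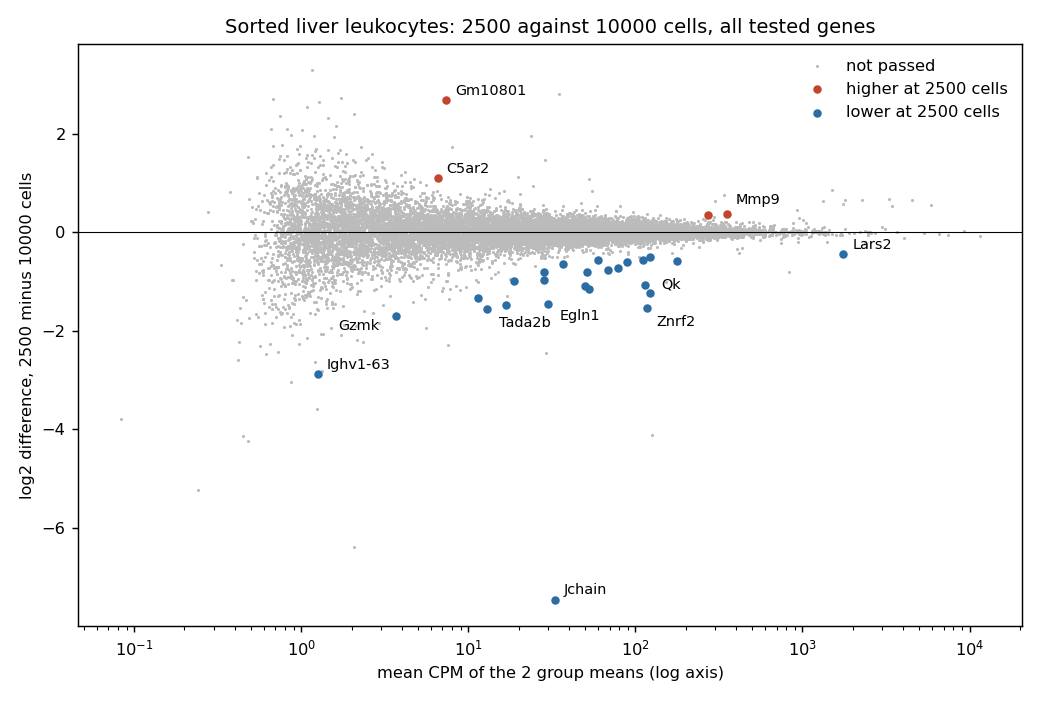
Log2 difference of each tested gene (y axis, 2500 minus 10000 cells) against the mean of its 2 group means in CPM (x axis, log scale); the 4 red points passed as higher and the 25 blue points as lower at 2500 cells. Most points above 10 CPM lie close to 0, and Jchain stands alone at the bottom at -7.46.

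Qk, Znrf2 and Tada2b were among the 10 lower genes named by smallest p. Qk, which encodes the KH-domain splicing regulator Quaking (chr17:10202601-10319854, minus strand, GRCm38), had 81.2, 69.9 and 67.4 CPM at 2500 cells, against 174, 155 and 189 CPM at 10000 cells. Every 2500-cell library was below every 10000-cell library, and the log2 difference was -1.24 (SE 0.12, adjusted p = 0.000195). Znrf2, a membrane-bound E3 ubiquitin ligase (chr6:54816916-54893500, plus strand), had 62.8, 56.7 and 62.9 CPM at 2500 cells, against 186, 147 and 193 CPM at 10000 cells. The groups lay far apart, and the log2 difference was -1.53 (SE 0.16, adjusted p = 0.000747). Tada2b, an adaptor subunit of the SAGA histone acetyltransferase complex (chr5:36473670-36484285, minus strand), had 8.84, 9.44 and 8.46 CPM at 2500 cells, against 27.8, 20.6 and 26.3 CPM at 10000 cells. Its log2 difference was -1.48 (SE 0.20, adjusted p = 0.00192).

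Egln1 encodes the prolyl hydroxylase PHD2, which marks hypoxia-inducible factor for degradation when oxygen is present (chr8:124908587-124949324, minus strand). It had 18.4, 12.7 and 17.5 CPM at 2500 cells, against 43.2, 34.8 and 54.3 CPM at 10000 cells, a log2 difference of -1.45 (SE 0.21, adjusted p = 0.00543). Brd1, a scaffold of histone acetyltransferase complexes that reads acetylated histones, had 39.2, 30.2 and 29.8 CPM at 2500 cells, against 76.1, 61.1 and 82.0 CPM at 10000 cells, a log2 difference of -1.14 (adjusted p = 0.00209). Heca, the counterpart of the Drosophila gene headcase, averaged 31.9 ± 7.73 CPM at 2500 cells and 68.2 ± 7.82 CPM at 10000 cells, and fell by 1.10 on the log2 scale. Mbd2, a reader of methylated DNA that recruits repressive chromatin complexes, averaged 73.3 ± 10.1 CPM at 2500 cells and 154 ± 8.47 CPM at 10000 cells (log2 difference -1.08). Fam120a, an RNA-binding scaffold protein, averaged 59.2 ± 4.23 CPM and 97.3 ± 9.18 CPM at 2500 and 10000 cells (log2 difference -0.72). Git1, a GTPase-activating protein for Arf proteins, averaged 19.3 ± 3.36 CPM and 37.8 ± 5.96 CPM at 2500 and 10000 cells (log2 difference -0.97). In none of these genes did the groups overlap, nor did they in any of the 29 genes that passed. These genes, like Qk, Znrf2 and Tada2b, were chosen by small p. Their lack of overlap is therefore no separate evidence.

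**Figure D2:**
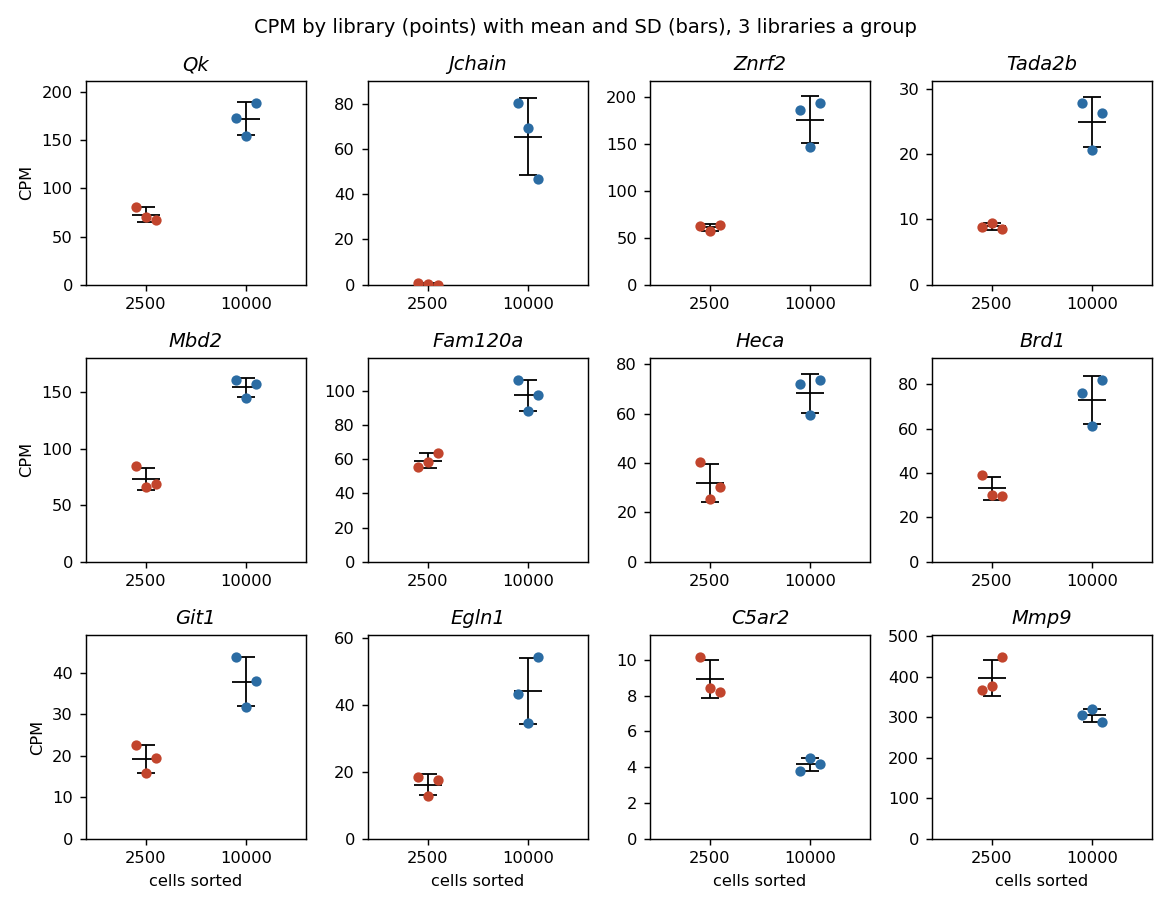
CPM of 12 genes in each library, 2500 cells left and 10000 cells right, with linear y axes that start at 0; bars give the mean and SD of 3 libraries. In the 10 lower genes every 2500-cell library lies below every 10000-cell library, and in C5ar2 and Mmp9 every 2500-cell library lies above. The genes were chosen by small p, so the lack of overlap is no separate evidence.

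Qk, Znrf2, Tada2b, Fam120a, Heca, Brd1 and Egln1, 7 of the 29, passed under each of the 22 alternative settings tried, and the other 22 lost the call in at least 1. A further 9 lower genes are given next. Smad4, the shared mediator of TGF-β family signalling, averaged 141 ± 27.1 CPM at 2500 cells and 212 ± 9.88 CPM at 10000 cells (log2 difference -0.59, adjusted p = 0.0388). Usp7, a deubiquitinase that stabilises MDM2 and p53, averaged 89.8 ± 8.03 and 133.2 ± 5.30 CPM at 2500 and 10000 cells (log2 difference -0.57). Chsy1, a chondroitin synthase, averaged 51.0 ± 6.78 and 86.7 ± 8.22 CPM at 2500 and 10000 cells (log2 difference -0.77). Ppp2cb, a catalytic subunit of protein phosphatase 2A, Gna12, a G protein alpha subunit, and Ybx3, a cold-shock domain protein, fell by 0.64, 0.56 and 0.61 on the log2 scale. Cnnm3, Marveld1 and Dpy19l1 fell by 0.99, 0.81 and 0.49. These 9 genes lie outside the rule for naming genes and were chosen after their values were seen; each lost the call in 2 to 14 of the 22 alternatives.

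Purb, a single-stranded DNA- and RNA-binding protein (chr11:6467599-6475917, minus strand), had 42.2, 37.2 and 33.2 CPM at 2500 cells, against 70.1, 56.5 and 70.4 CPM at 10000 cells (log2 difference -0.80, adjusted p = 0.0140). Its antisense neighbour Gm11973, a gene model that overlaps it on the plus strand, fell by 1.56. The sources used here state no strand setting for the counts, so reads of these overlapping genes cannot be told apart. A list of 20 transcription and splicing regulators had 6 lower members, but these are among 7 genes entered from an earlier result of these data, so their count is no independent evidence. The seventh, Kctd12, had a log2 difference of -0.01, and none of the other members passed. Among those, Srsf3 and Ddx5 had log2 differences of 0.00, Hnrnpu 0.04 and Med1 -0.26.

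The lower genes shared a sequence feature that the comparison did not use. For each gene the stretch of 100 bases with the highest GC content was found along 1 annotated transcript (GENCODE M21, GRCm38). It reached at least 85% GC in 15 of the 25 lower genes (60%), against 1099 of 14755 tested genes with a transcript sequence (7.45%). The median of this highest stretch was 90% GC in the lower genes and 71% in all tested genes. In all 15 it began within the first 500 bases of the transcript, as it did in 7 of the other 10 lower genes, in 91.8% of all tested genes with a stretch of at least 85% GC and in 76.3% of all tested genes. The first 300 bases had a median of 77.3% GC in the 25 lower genes and 59.0% in all tested genes, whereas the last 300 bases had 39.0% and 43%, and whole transcripts 51.2% and 49.6%. The coding stretches below show the contrast between 3 of these genes (Znrf2, Egln1 and Purb), Tada2b, whose richest stretch of 92% lies outside the coding part, and the lower immune genes Jchain and Gzmk. Each is the most GC-rich run of 100 coding bases within 1 exon, read 5′ to 3′ along the mRNA strand, and capitals mark CG dinucleotides.
Znrf2, chr6:54817176-54817275, plus strand, 89% GC, 23 CG: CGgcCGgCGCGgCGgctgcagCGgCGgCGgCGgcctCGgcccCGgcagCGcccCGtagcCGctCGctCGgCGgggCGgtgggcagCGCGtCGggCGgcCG
Egln1, chr8:124948770-124948869, minus strand, 95% GC, 24 CG: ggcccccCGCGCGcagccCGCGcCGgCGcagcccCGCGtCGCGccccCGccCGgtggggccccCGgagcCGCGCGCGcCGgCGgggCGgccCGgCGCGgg
Purb, chr11:6475771-6475870, minus strand, 93% GC, 25 CG: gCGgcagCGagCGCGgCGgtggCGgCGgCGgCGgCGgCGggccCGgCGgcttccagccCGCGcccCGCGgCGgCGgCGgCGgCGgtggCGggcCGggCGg
Tada2b, chr5:36483920-36484019, minus strand, 72% GC, 12 CG: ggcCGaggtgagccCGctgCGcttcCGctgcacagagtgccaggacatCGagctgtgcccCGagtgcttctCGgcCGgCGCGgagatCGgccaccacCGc
Jchain, chr5:88521421-88521520, minus strand, 51% GC, 2 CG: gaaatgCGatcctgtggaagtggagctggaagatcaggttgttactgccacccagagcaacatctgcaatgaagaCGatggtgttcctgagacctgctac
Gzmk, chr13:113173026-113173125, minus strand, 52% GC, 1 CG: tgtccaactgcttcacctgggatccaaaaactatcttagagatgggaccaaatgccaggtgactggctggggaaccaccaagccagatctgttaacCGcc

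The share of lower genes was uneven across this feature. Among the 155 tested genes whose richest 100 bases reached 90% GC or more, 13 were lower at 2500 cells (8.39%) and 0 were higher. Between 85% and 90% it was 2 of 944 genes (0.212%), and in the bins below 85% the share ran from 0% to 0.194%. The same held for the size of the difference without regard to any test, but this is no separate evidence. All 13 lower genes of the richest bin had a log2 difference below -0.5. They are counted again among the 21 genes given next. Among genes with a mean of at least 10 CPM, the log2 difference was below -0.5 in 21 of 110 genes (19.1%) in the richest bin and in 0.266% to 1.31% of genes in the other bins, and 0 genes of the richest bin were above 0.5. The median difference in that bin was -0.08, so that most of its genes moved little. Among those that did not pass were Sppl3 and Mta1, which were chosen after their values were seen. Sppl3, an intramembrane protease, averaged 87.7 CPM at 2500 cells and 123 CPM at 10000 cells, a log2 difference of -0.49 (adjusted p = 0.0569). Mta1, a subunit of the NuRD chromatin complex, averaged 10.9 CPM at 2500 cells and 19.2 CPM at 10000 cells, a log2 difference of -0.82 (adjusted p = 0.0953). Over a stretch of 200 bases, a choice added after the data were seen, 14 of 25 lower genes reached 85% GC, against 197 of all tested genes (1.34%). Whether the base composition had a part in the lower counts was not tested.

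**Figure D3:**
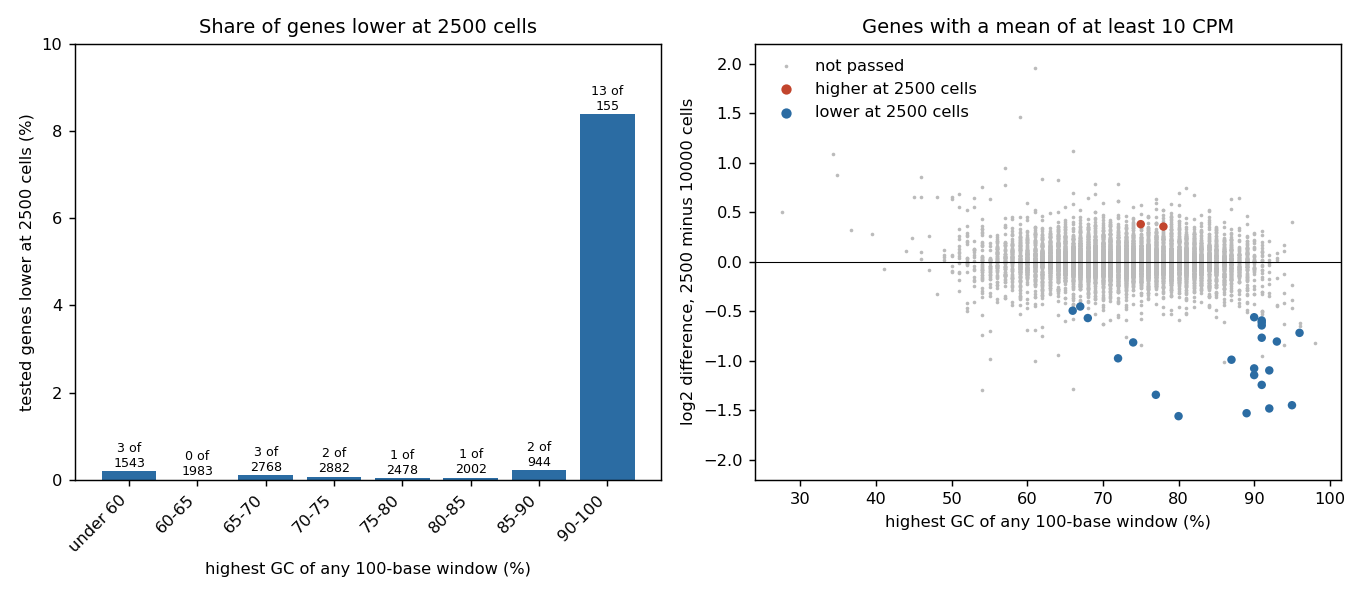
Left, the percentage of tested genes that were lower at 2500 cells, by the highest GC content of any 100-base stretch of the transcript, with counts above the bars; right, the log2 difference (2500 minus 10000 cells) of genes with a mean of at least 10 CPM against the same GC content, with 4 points outside the axis of ±2.2. The bin from 90% GC reaches 8.39% on the left, and its points spread downward but not upward on the right.

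The libraries of 5000 and 20000 cells, which the comparison did not contrast, gave differences in the same direction for most of the lower genes. Of the 25 genes, 21 were lower at 5000 than at 20000 cells, against 48.2% of all tested genes. Their median log2 difference (5000 minus 20000 cells) was -0.26, and 9 had an unadjusted p under 0.05 with edgeR. The share of all tested genes at that p is not given for this pair, so the 9 have no baseline. The median difference of the same genes was -0.99 in 2500 minus 10000 cells. All 15 genes with a stretch of 85% GC or more were lower at 5000 cells, with a median of -0.33, whereas 6 of the other 10 were, with a median of -0.09. In the bin from 90% GC, 7.27% of genes with at least 10 CPM lay below -0.5 at 5000 minus 20000 cells, against 0.655% to 2.46% in the other bins. Qk had 94.8, 132 and 120 CPM at 5000 cells, against 178, 159 and 134 CPM at 20000 cells, and Tada2b had 9.08, 14.7 and 18.3 CPM, against 24.4, 24.1 and 22.2 CPM. Among the genes that passed in every alternative, Qk, Tada2b, Fam120a, Heca and Brd1 did not overlap between 5000 and 20000 cells. Znrf2 and Egln1 did overlap. The share of all tested genes without overlap is not given for this pair.

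**Figure D4:**
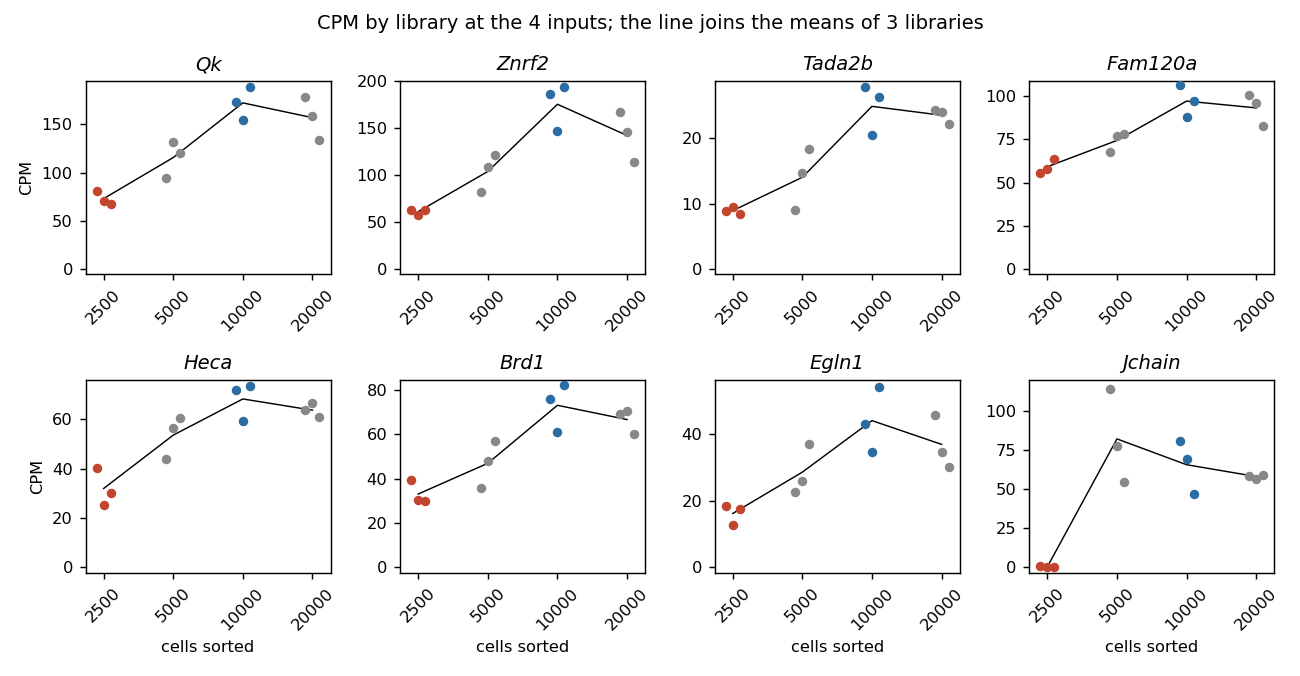
CPM of 8 genes in each library at 2500, 5000, 10000 and 20000 sorted cells (x axis, in order), with linear y axes and a line through the group means. The 7 genes that passed in every alternative have lower means at 5000 than at 20000 cells, while Jchain does not and is near 0 at 2500 cells.

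Plasma cell genes gave the largest single difference. Jchain encodes the joining chain that links IgA dimers and IgM pentamers and is made by antibody-secreting cells (chr5:88519809-88527891, minus strand). It had 0.655, 0.402 and 0 CPM at 2500 cells, from 6, 4 and 0 counts, against 80.5, 69.2 and 46.9 CPM at 10000 cells, from 769, 689 and 459 counts. All 3 libraries of 2500 cells were close to 0 and all 3 of 10000 cells were high, and the log2 difference was -7.46 (SE 0.52, adjusted p = 0.000195). Its means were 82.0 ± 30.0 CPM at 5000 cells and 58.0 ± 1.27 CPM at 20000 cells, so the low level was that of the 2500-cell libraries. Its adjusted p was 0.189 under limma-voom and under 0.05 in the other 21 alternatives. Igha, the constant region of the IgA heavy chain, had 9.28, 28.1 and 2.66 CPM at 2500 cells, against 199, 265 and 247 CPM at 10000 cells. Its groups did not overlap either, and with a log2 difference of -4.11 (SE 0.63) its adjusted p was 0.0662 with edgeR; it passed with DESeq2. Tnfrsf17, which encodes the plasma cell survival receptor BCMA, had 0 counts in each 2500-cell library, where 3 counts correspond to 0.297 to 0.349 CPM, and 8, 5 and 6 counts at 10000 cells.

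Differences within the plasma cell list were uneven and ran from -7.46 to 0.13, with 10 negative and 2 positive. The list's share of counts was 0.307% to 0.353% at 2500 cells and 0.375% to 0.409% at 10000 cells. Whether the share differed was not tested. Of its 12 tested members 1 passed, against 0.196% of all tested genes. The median log2 difference was -0.11 against 0.01 for all genes, and 3 members lay wholly lower at 2500 cells, against 5.60% of all genes. Mzb1, a chaperone of antibody assembly, averaged 87.3 CPM at 2500 cells and 97.4 CPM at 10000 cells, a log2 difference of -0.16. Xbp1 and Sdc1, which other cells also express, had differences of -0.05 and 0.02, and the kappa constant region Igkc had -0.06. Ighg2b, an IgG constant region, had 23.7, 2.11 and 1.39 CPM at 2500 cells, against 123, 11.2 and 15.1 CPM at 10000 cells, with replicate 1 high in both groups. Its log2 difference was -2.45 (adjusted p = 0.785). In libraries made from many cells, fewer cells of a type and less RNA per cell cannot be told apart.

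Other immune genes that passed were few. Gzmk, a granule protease of cytotoxic T cells, had 1.53, 2.01 and 1.62 CPM at 2500 cells, against 4.92, 5.42 and 6.54 CPM at 10000 cells (log2 difference -1.70, SE 0.30, adjusted p = 0.0184). The immunoglobulin heavy chain segment Ighv1-63 had 4, 2 and 2 counts at 2500 cells, against 16, 22 and 27 counts at 10000 cells (log2 difference -2.88). Related V segments can share reads, so its value is uncertain. Both were chosen after their values were seen, and each lost the call in 5 or more alternatives, among them the fit of the 6 libraries alone. Of the natural killer and innate lymphoid list 0 of 15 members passed with edgeR or DESeq2, and 1 had an unadjusted p under 0.05: Gzma differed by -0.09, Gzmb by -0.16 and Prf1 by -0.03.

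Cell cycle genes lay on the lower side. All 15 members of the proliferation list had a negative log2 difference, with a median of -0.39, and 1 passed. Of all tested genes 0.169% passed as lower. Ccnb2, a mitotic cyclin, had 5.24, 8.64 and 5.33 CPM at 2500 cells, against 16.8, 19.1 and 13.2 CPM at 10000 cells (log2 difference -1.34, SE 0.24, adjusted p = 0.0184). The groups did not overlap, nor did they for Ccnb1, Tyms and Mcm5, which makes 4 of 15 members, where 5.60% of all tested genes lay wholly lower at 2500 cells. Ccnb1, its close relative, had 5.02, 4.12 and 5.33 CPM at 2500 cells, against 11.2, 14.5 and 6.54 CPM at 10000 cells, which did not pass (adjusted p = 0.165). Mki67 and Top2a overlapped between the groups, with differences of -0.06 and -0.10, as did the replication gene Pcna, with -0.05. Mcm5, a subunit of the replicative helicase, did not overlap, and its log2 difference of -0.10 did not pass (adjusted p = 0.893). With DESeq2, Ccnb1 passed as well. Signs were mixed at 5000 minus 20000 cells, where Ccnb2 had 0.27, Ccnb1 -0.06 and Tpx2 0.29. Ccnb2 lost the call in 6 of the 22 alternatives, among them without replicate 1 of 2500 cells and without replicate 1 or 2 of 10000 cells.

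Lars2, the mitochondrial leucyl-tRNA synthetase, had 1505, 1419.6 and 1534 CPM at 2500 cells, against 2142, 2021 and 1932 CPM at 10000 cells (log2 difference -0.45, SE 0.08, adjusted p = 0.0175). It was entered in a list of features that resemble ribosomal RNA or repeats, of which 5 of 9 were tested. Mir6236 of that list had a difference of 0.01. At 5000 minus 20000 cells both had larger differences, -1.59 for Lars2 and -1.56 for Mir6236, with Lars2 at 1469 ± 135 CPM at 5000 cells and 4425 ± 510 CPM at 20000 cells. Gm10801, a gene model of the same list on chromosome 2, was higher: it had 23.6, 6.63 and 7.99 CPM at 2500 cells, against 1.57, 2.91 and 1.43 CPM at 10000 cells (log2 difference 2.68, SE 0.47, adjusted p = 0.0277). Replicate 1 of 2500 cells was the highest, and the related model Gm10800, with which it can share reads, had 121, 30.7 and 32.8 CPM at 2500 cells, against 7.75, 14.0 and 4.70 CPM at 10000 cells without passing (adjusted p = 0.400).

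Among the 4 genes that were higher at 2500 cells, Mmp9 and C5ar2 are myeloid genes. Mmp9, a gelatinase stored in neutrophil granules, had 367, 376 and 449 CPM at 2500 cells, against 306, 321 and 289 CPM at 10000 cells (log2 difference 0.38, SE 0.08, adjusted p = 0.0499). C5ar2, a second receptor for the complement fragment C5a, had 10.2, 8.44 and 8.22 CPM at 2500 cells, against 3.77, 4.52 and 4.19 CPM at 10000 cells (log2 difference 1.10, SE 0.21, adjusted p = 0.0309). Like all 29 genes that passed, neither overlapped between the groups, and they lost the call in 15 and 11 of the 22 alternatives. At 5000 minus 20000 cells Mmp9 had a difference of 0.00 and C5ar2 one of -0.44. Over 2500, 5000, 10000 and 20000 cells Mmp9 averaged 397, 335, 305 and 335 CPM, and C5ar2 8.94, 5.77, 4.16 and 7.90 CPM. In both the 2500-cell mean was the highest and the 10000-cell mean the lowest. The neutrophil list had 13 of 14 members with a positive difference and a median of 0.54, and 1 of them, Mmp9, passed, while S100a9 and Retnlg passed with DESeq2 but not with edgeR. Of all tested genes 0.0270% passed as higher with edgeR. The list's share of counts was 0.153% to 0.207% at 2500 cells and 0.120% to 0.139% at 10000 cells.

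S100a8 and S100a9, the subunits of calprotectin, lay above the 10000-cell libraries in every 2500-cell library without passing. Of all tested genes 5.38% lay wholly higher at 2500 cells. S100a8 had 303, 390 and 407 CPM at 2500 cells, against 251, 255 and 200 CPM at 10000 cells (log2 difference 0.64, adjusted p = 0.415), and S100a9 differed by 0.75 (adjusted p = 0.297). At 5000 minus 20000 cells they had -0.39 and -0.43. S100a9 averaged 424, 356, 252 and 478 CPM at 2500, 5000, 10000 and 20000 cells. Its highest mean was thus at 20000 cells and its lowest at 10000 cells. Csf3r, the receptor for granulocyte colony-stimulating factor, averaged 325 ± 2.42 CPM at 2500 cells and 263 ± 10.7 CPM at 10000 cells, a log2 difference of 0.30 (adjusted p = 0.189). Granule genes of immature neutrophils depended on single libraries. Ngp had 0, 126 and 0.463 CPM at 2500 cells, against 45, 1.41 and 0.102 CPM at 10000 cells, and Ltf and Camp were likewise highest in replicate 2 of 2500 cells and replicate 1 of 10000 cells.

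The fourth higher gene, Gm15441, averaged 307 ± 20.3 CPM at 2500 cells and 240 ± 13.6 CPM at 10000 cells (log2 difference 0.36, adjusted p = 0.0397). It lies antisense to Txnip, which encodes an inhibitor of thioredoxin and of glucose uptake. Txnip had 994, 1076 and 1106 CPM at 2500 cells, against 813, 921 and 848 CPM at 10000 cells, and just missed the threshold (log2 difference 0.30, adjusted p = 0.0519). With no strand setting stated, reads of this pair cannot be told apart. Next by p, and also not passing, were the elongation factor Eef1a1 with a log2 difference of 0.25, Alox5ap, which presents arachidonic acid to 5-lipoxygenase, with 0.29, the ubiquitin ligase Neurl3 with 0.27, the interleukin 36 gene Il1f9 with 0.78 and the Notch coactivator Maml3 with 0.75. The libraries of the groups did not overlap for any of these, where 5.38% of all tested genes lay wholly higher at 2500 cells. Since these genes were chosen by small p, the lack of overlap is no separate evidence. At 2500, 5000, 10000 and 20000 cells Alox5ap averaged 141, 139, 115 and 140 CPM, and Eef1a1 1093, 1060, 916 and 1034 CPM. The 10000-cell mean was the lowest in both, and also in Gm15441, Txnip, Neurl3 and Il1f9. In Maml3 the lowest was at 5000 cells, with 9.72 CPM against 9.87 CPM at 10000 cells.

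Mitochondrially encoded transcripts varied most among the 2500-cell libraries. All 8 tested members had positive log2 differences, with a median of 0.65, and 0 passed with edgeR or DESeq2. Of the 8, 7 had an unadjusted p under 0.05 with edgeR, against 7.40% of all tested genes. Wholly higher at 2500 cells were 5 of the 8, against 5.38% of all tested genes. One of these, mt-Cytb, had 5551, 7231 and 3711 CPM at 2500 cells, against 3367, 3434 and 3689 CPM at 10000 cells. Their share of counts was 2.03%, 2.73% and 1.43% at 2500 cells, against 1.35%, 1.35% and 1.36% at 10000 cells, and the difference in the share had an exact two-sided permutation p of 0.1, the smallest that 3 against 3 libraries allow. The share was 2.08% to 2.38% at 5000 cells and 1.70% to 1.82% at 20000 cells. The 10000-cell libraries were thus the lowest of the sorted libraries. Means of mt-Cytb were 5772 CPM at 5000 cells and 4453 CPM at 20000 cells. mt-Co1, a subunit of cytochrome oxidase, had 4162, 5538 and 2563 CPM at 2500 cells, against 2483, 2534 and 2617 CPM at 10000 cells, where replicate 3 of 2500 cells lay inside the range of 10000 cells. Nuclear genes of the same respiratory chain had a median of -0.05, with 0 of 15 passing with either tool, 2 of them at an unadjusted p under 0.05, and all 15 intervals within 2-fold.

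Ribosomal protein genes had small differences that were mostly positive, 25 of 30 (24 when scaled by library totals) and a median of 0.13. With edgeR or DESeq2 0 passed, 9 had an unadjusted p under 0.05 (7.40% of all tested genes did), and 14 lay wholly higher at 2500 cells (5.38% of all tested genes did). Rps3 averaged 372 CPM at 2500 cells and 322 CPM at 10000 cells, a log2 difference of 0.21 (adjusted p = 0.234). At 2500, 5000, 10000 and 20000 cells Rplp0 averaged 382, 374, 340 and 372 CPM, and Rpl4 658, 672, 626 and 687 CPM. Both had their lowest mean at 10000 cells. The list as a whole is not given at 5000 and 20000 cells. Hemoglobin and other erythroid transcripts had a median of -1.29 over 5 tested members, of which 0 passed with edgeR or DESeq2 and 1 had an unadjusted p under 0.05. Hbb-bs, a beta globin, had 2.40, 25.8 and 1.16 CPM at 2500 cells, against 32.5, 18.8 and 22.1 CPM at 10000 cells, so that replicate 2 of 2500 cells lay inside the range of 10000 cells and the other 2 below it. Globin copies are near-identical and can share reads.

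**Figure D5:**
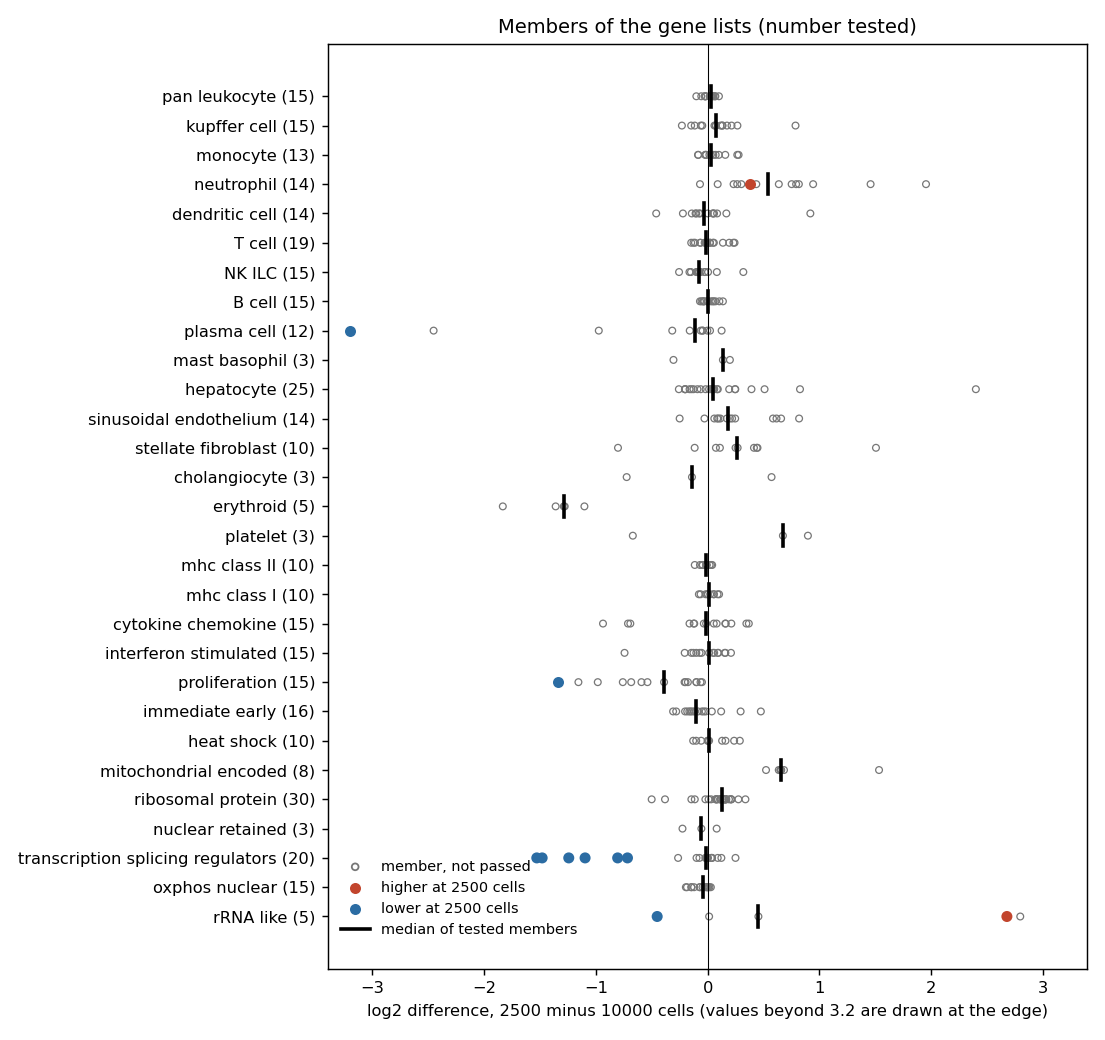
Log2 difference (x axis, 2500 minus 10000 cells) of each tested member of 29 gene lists (y axis, number tested in brackets); open circles did not pass, filled circles did, and black bars are medians. The lists of leukocyte types and antigen presentation sit around 0, while the neutrophil, mitochondrially encoded, proliferation and erythroid lists are off centre.

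The identity genes of most leukocyte types kept narrow intervals around 0. In the lists for MHC class I and II, B cells, T cells, cytotoxic innate lymphocytes, monocytes and leukocytes in general, medians ran from -0.08 to 0.03, 0 members passed with edgeR or DESeq2, at most 2 of a list had an unadjusted p under 0.05, and every tested member's 95% interval lay within 2-fold. The T cell list held 0.281% to 0.295% of counts at 2500 cells and 0.274% to 0.305% at 10000 cells, and the B cell list 2.12% to 2.47% and 2.33% to 2.51%. Kupffer cell genes had a median of 0.08 and 14 of 15 intervals within 2-fold. Clec4f, a lectin of Kupffer cells, had 154, 161 and 226 CPM at 2500 cells, against 174, 240 and 171 CPM at 10000 cells, and the groups overlapped. Marco, a scavenger receptor, was the exception, with 22.7, 25.8 and 9.27 CPM at 2500 cells, against 9.11, 16.6 and 7.86 CPM at 10000 cells (log2 difference 0.79, adjusted p = 0.567). Dendritic cell genes had 13 of 14 intervals within 2-fold and a median of -0.03. Interferon-stimulated genes had a median of 0.01 and immediate early genes, which handling can induce, one of -0.10.

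Fewer genes were seen at 2500 cells, by a margin within the spread of the libraries. After thinning to 6723357 counts, the libraries of 2500 cells had 19255 ± 332 genes with at least 1 count and those of 10000 cells 19647 ± 164 (SD, n = 3 each), and the difference of -392 had an exact two-sided permutation p of 0.3, where 0.1 is the smallest possible. With at least 5 counts the numbers were 15048 ± 26.4 and 15039 ± 80.7 at 2500 and 10000 cells. Hepatocyte genes were a small share of counts at both inputs: 0 of 25 tested hepatocyte genes passed with edgeR or DESeq2, 1 had an unadjusted p under 0.05, and the share of counts had an exact permutation p of 1.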

How the data were processed

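RNA had been sequenced from sorted liver leukocytes and bulk liver. Per the labels' protocols, total RNA was isolated on columns with DNase treatment, the SMART-seq v4 kit gave the cDNA, and tagmentation the libraries. The authors deposited raw counts per gene and TPM, with 1 column a sample and no pooling; the deposited TPM served only as an alternative. GRCm38 is the genome build in the submitters' processing notes, which list the tools featureCounts 1.5.1, DESeq2 1.34.0, STAR 2.5.2b, FastQC 0.11.5 and RSEM 1.3.0; roles, filters and strand setting are not given in the sources used here. PCR copies carry no molecular identifiers, so counts are not independent molecules.

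The 12 sorted libraries (6723357 to 14496314 counts) were fitted with edgeR 4.0.16 in R 4.3.3 (quasi-likelihood F test, robust, TMM, filterByExpr by group). The contrast was 2500 minus 10000 cells, with Benjamini-Hochberg adjustment over 14795 genes and a threshold of 0.05. The 95% intervals came from the SE and the total degrees of freedom of the fit (residual plus prior). The code was tested on simulated data. DESeq2 1.42.0, limma 3.58.1 (voom, and trend on log2(TPM + 1) for genes with a mean TPM of at least 1), other scalings and filters, thinning, a replicate block and leaving out each library were alternatives. Shares and numbers of detected genes were compared by exact permutation tests over libraries. Symbols were matched for 48348 of 48794 IDs, and coordinates and transcripts came from GENCODE M21.

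The rule named Ptprc, up to 10 genes per direction by p with at least 5 CPM, filled with genes that did not pass, passing and most abundant list members, genes at 0 in 1 group and genes of high spread. Numbered gene models were not named by it, except in 1 list; Gm11973 and Gm15441 were named after their values were seen, as were further examples from lists. The comparison, its members and the 29 lists were chosen with earlier results of these data known. Replicate numbers were not used as pairs. Same-numbered libraries deviated together with correlations of -0.124, 0.0397 and 0.159 for replicates 1, 2 and 3. Correlations with other numbers ran from 0.0174 to 0.107, from -0.249 to 0.224 and from -0.118 to -0.0556. Whether same-numbered libraries shared an animal or sort was not tested.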

Additional observations from a re-analysis of the deposited data

How the results depend on the processing

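Of the 29 genes that passed, 7 passed under all 22 alternatives and 0 changed sign. Against 25 lower and 4 higher genes, the counts were 122 and 66 with no filter on low counts (28315 genes tested), 57 and 13 with DESeq2, 15 and 0 with only the 6 libraries compared, 14 and 0 with limma-voom and 18 and 0 with limma on log2(TPM + 1). Where 0 were higher, 780, 1131 and 1321 genes had an unadjusted p under 0.05 in these 3 fits. Higher genes numbered 2 with library totals alone and 2 after thinning. Leaving out one library gave 14 to 31 lower and 0 to 21 higher genes, and 8 to 20 lower genes with a GC-rich stretch; the last count was 41 with no filter and 28 with DESeq2, against 15. The cause was not tested. Equal replicate numbers were not treated as pairs; a replicate block gave 22 lower and 2 higher genes. The difference in detected genes was -392 and became 8.67 with at least 5 counts. The hepatocyte share of counts differed by 0.000393 percentage points, by -0.0023 in TPM, and by -0.00328 to 0.00308 when one library was left out. Depth limits genes with few counts: of 144 genes at 0 in all 2500-cell libraries and present in all of 10000 cells, none exceeded 15 counts. Among 29 lists, the median changed sign under another scaling for 4, all close to 0: B cell, heat shock, interferon-stimulated and MHC class I.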

Other observations

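Some genes varied widely between libraries of the same group. Alox15, which encodes 12/15-lipoxygenase, had 0, 88.6 and 0 CPM at 2500 cells, against 42.6, 19.4 and 8.37 CPM at 10000 cells. It was among the 10 genes of highest spread in both groups, as were Ngp, Ltf, Ighg2b, Gm10800 and Nufip2. The library with Alox15 at 2500 cells was replicate 2, which also held the highest Ngp, Ltf and Camp and the highest globin of its group. At 10000 cells all of these were highest in replicate 1. Nudt3, a polyphosphate hydrolase, and Nufip2, an RNA-binding protein, were low in replicate 3 of 2500 cells, with 17.8 and 29.9 CPM, against 50.8 to 61.0 and 82.4 to 94.9 CPM in replicates 1 and 2. At 10000 cells they ran from 23.1 to 35.1 and from 31 to 59.8 CPM. Cxcl10, an interferon-induced chemokine, had 20.1, 24.4 and 12.9 CPM at 2500 cells, against 19.8, 34.5 and 38.7 CPM at 10000 cells, and the groups overlapped.

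Heavy and kappa immunoglobulin V segments were spread wider at 2500 cells, as were other genes. For the 9644 genes with a mean of at least 10 CPM, the median SD was 0.144 at 2500 cells and 0.103 at 10000 cells. It was 0.183 and 0.126 for all tested protein-coding genes, and 0.316 and 0.226 for long noncoding genes. The median SD of log2 CPM over tested heavy chain segments was 0.543 at 2500 cells and 0.327 at 10000 cells, and over kappa segments 0.455 and 0.298. The 3 lambda segments went the other way, with 0.0827 at 2500 cells and 0.364 at 10000 cells. Of 113 heavy chain segments, 90 to 95 were detected at 2500 cells and 98 in each library of 10000 cells. Their summed level was 326 to 394 CPM at 2500 cells and 428 to 450 CPM at 10000 cells, so the groups did not overlap. Of the 76 tested segments 1 passed as lower, where 0.169% of all tested genes did. It was Ighv1-63, with 4, 2 and 2 counts at 2500 cells, which lost the call in 6 of 21 alternatives. Kappa segments summed to 675 to 823 CPM at 2500 cells and 805 to 894 CPM at 10000 cells, and the groups overlapped. Related segments can share reads.

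At their own depth, 144 genes had 0 counts in every 2500-cell library and counts in every 10000-cell library, and 49 genes the reverse; after thinning to a common depth the numbers were 122 and 48. The most abundant absent at 2500 cells were Ankrd35, F13b, Ankrd22 and Tnfrsf17, and the most abundant absent at 10000 cells was Saa4, a serum amyloid A apolipoprotein made in the liver, with 4, 8 and 14 counts at 2500 cells. These genes were selected by their values, and none of the 5 passed the filter for testing.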
